A study of Mus musculus with 19 samples.

Results

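Interferon-stimulated genes are the genes that cells switch on when an interferon reaches its receptor, and 50 of them were followed here through the cortex of aged APP23 mice fed a high fat diet (HFD) or a normal diet (ND). The 50 were taken by symbol from a list of interferon targets, and all 50 were among the 14996 genes of the deposited table. They were chosen with earlier results of these data known. Their counts beside those of all genes are therefore not those of a list chosen blind. APP23 mice are hemizygous for a human APP751 transgene with the Swedish familial Alzheimer's disease mutation, on a C57Bl6 background, and every mouse used here carried it, so there was no group without the transgene. Mice were assigned at random at a mean age of 11.7 months to ND (a Prolab Isopro chow) or to HFD (Western diet D12079B, 40% of calories from milk fat and corn oil), were fed for 3 months, and were tested for behavior at a mean age of 14.7 months. After perfusion, RNA of the dissected cortex was sequenced, with a library of its own for every mouse. Of the females 6 were on ND and 5 on HFD, and of the males 4 were on ND and 4 on HFD. Total reads per library lay between 11727151 and 17178044 in females and between 9308206 and 10844280 in males, so sex and depth moved together. The tissue label reads brain and the extraction notes name the cortex. All 7 markers of cortical excitatory neurons were in the table, and so were all 7 of the olfactory bulb and all 6 of the choroid plexus.

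Interferons bind receptors that signal through Janus kinases to transcription factors, which enter the nucleus and bind a short DNA element in front of their target genes. The targets include sensors of foreign RNA and DNA, enzymes that cut, edit or block RNA, membrane proteins that hold back virus particles, GTPases that act on the membranes around intracellular parasites, and the ubiquitin-like protein ISG15 with its enzymes. In the brain, microglia, astrocytes, endothelial cells and neurons can all respond to interferon, and an interferon-responsive state of microglia is known from mice with amyloid plaques.

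On HFD most of the 50 genes were called higher than on ND, and none was called lower. Levels are given in RPM (a gene's count scaled to the total of its library) and differences as log2 fold changes, HFD over ND, on which a value of 1 is a 2-fold higher level. A gene was called higher or lower where the unadjusted p of the quasi-likelihood test of edgeR was under 0.05, and an adjusted p is by Benjamini-Hochberg over all genes tested. With both sexes in 1 fit and a term for sex, 43 of 50 genes were called higher on HFD and 0 were called lower, where 5.99% of all 14934 genes tested were called higher and 6.3% lower. The median log2 fold change of the 50 was 0.46 (range 0.11 to 1.65), against 0.00 over all genes tested. The value of 1.65 was that of Zbp1. Only genes over 1 RPM in at least 2 libraries are in the table, and Zbp1 and Ifi35 met that through HFD females alone. A higher level on HFD was thus favoured in advance for these genes, which are among the 43. In females 43 of 49 were called higher and 0 lower (background 3.92% higher, 4.5% lower), with a median of 0.56 and a range of 0.11 to 1.30. In males 14 of 46 were called higher and 0 lower (background 4.2% in either direction), with a median of 0.25 and a range of -0.14 to 1.45. Without HFD male 2 the count in males was 8, for which no share of all genes is given here. With the mean of 12 microglia markers as a covariate the counts were 19 with both sexes, 18 in females and 3 in males, and with that of 4 erythrocyte markers 26, 15 and 13. With that of 7 olfactory bulb markers the count in males was 7. No gene of the table passed an adjusted p of 0.05 for diet in edgeR's quasi-likelihood test. The smallest adjusted p among the 50 was 0.0612 with both sexes, shared by Trim30a, Fam46c and Irf7, and it was 0.346 in females and 0.553 in males. By other tests of the same comparison, 19 of the 50 passed an adjusted p of 0.05 with DESeq2 (0.837% of all genes) and 19 with edgeR's likelihood ratio test (0.830%), and 0 with limma-voom. These 19 were the same by both tests, namely Bst2, Fam46c, Ifi44, Ifih1, Ifit1, Ifit3, Ifitm3, Irf7, Irgm1, Lgals3bp, Oas1a, Oasl2, Rsad2, Rtp4, Sp110, Tor3a, Trim30a, Usp18 and Zbp1. The quasi-likelihood count of 0 became 5 without ND female 1, 3 without HFD female 3 and 2 without HFD male 4. The shares of all genes that passed in these fits are not given here. In bulk tissue, more responding cells and more transcript in each cell cannot be told apart.

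**Figure D1:**
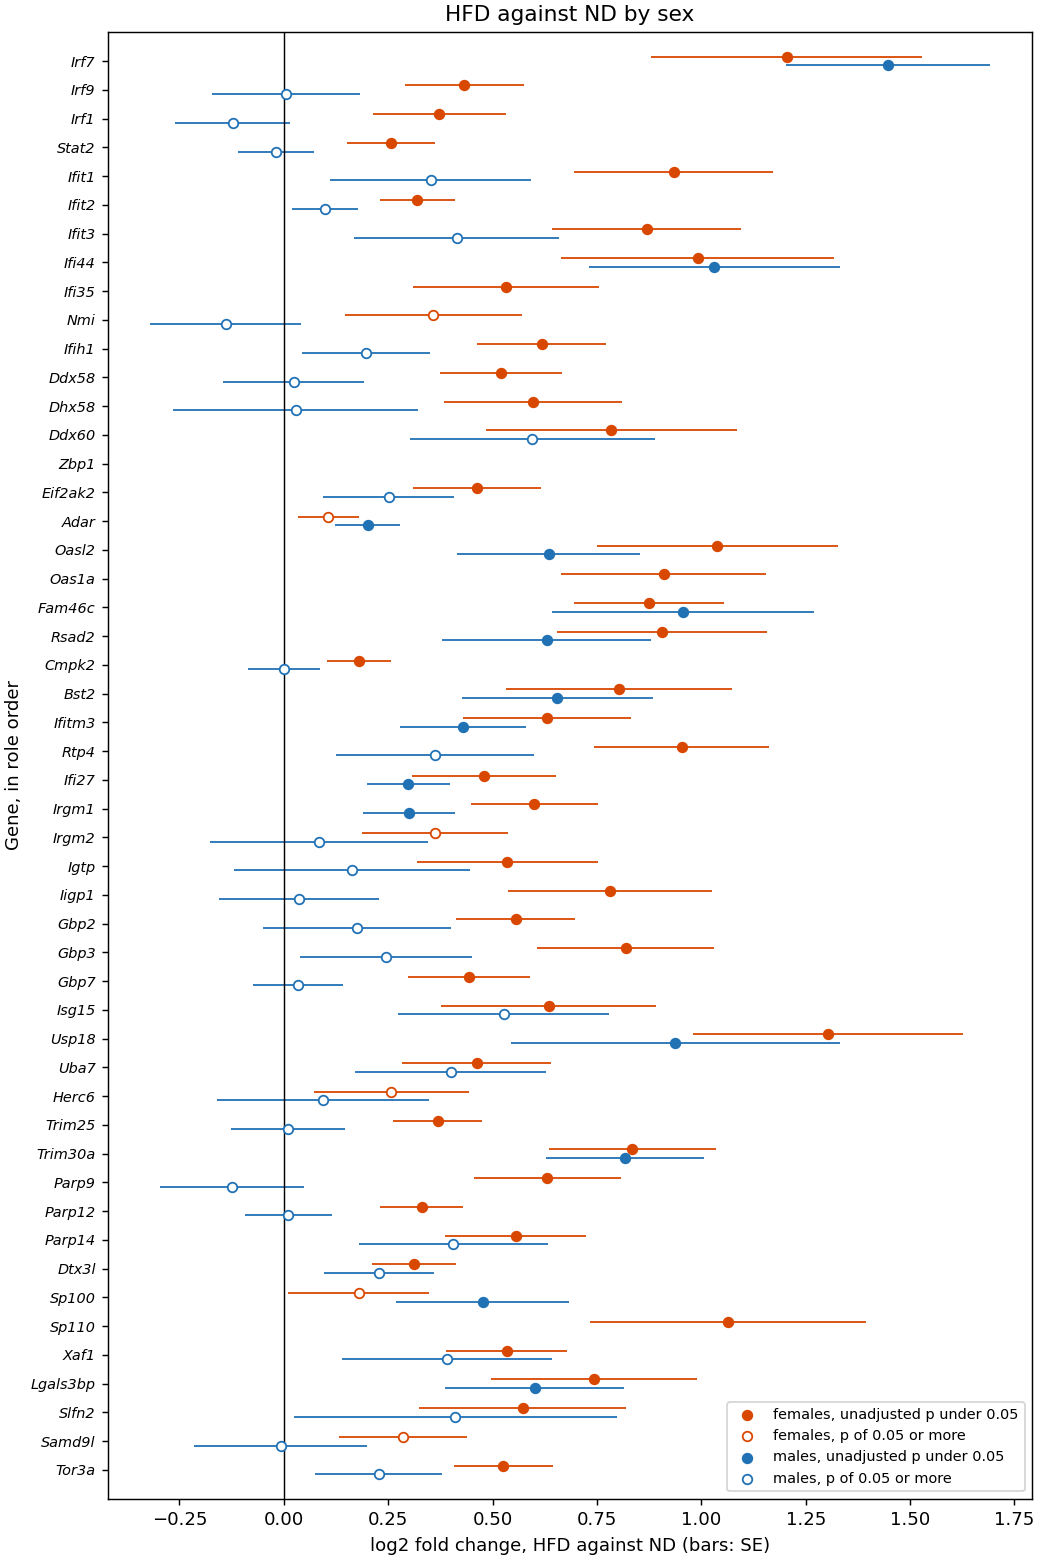
Log2 fold change (HFD over ND) of each of the interferon-stimulated genes in females and in males, with bars of 1 SE and filled points where the unadjusted p was under 0.05. In females all 49 genes tested lie above 0 and 43 points are filled, while in males 41 of 46 lie above 0 and 14 are filled.

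The short element through which interferon acts was looked for in front of these genes. RefSeq promoters (build GRCm38.p6, 250 bases before to 50 bases after each start) matched 41 of the 50 by symbol, with 50 promoters in all. The letters of the interferon-stimulated response element, GAAA and GAAA spaced by any 2 bases, were searched on both strands with overlapping matches allowed. They were found in 20 of the 50 promoters (40%) and in 19 of the 41 genes, against 3.44% of all 32851 promoters. The letters of the gamma-activated site, TTCNNNGAA, which read alike on both strands, were found in 11 of the 50 promoters (22%), against 8.30% of all promoters. Of the 19 genes with the first element, 17 were called higher with both sexes, with a median log2 fold change of 0.55, and of the 22 without it also 17, with a median of 0.29. A match of letters describes the sequence and does not show a bound site. The 6 promoters printed next show how the letters lie, each from 5′ to 3′ on the strand of its gene, with matches of the response element in capitals. Isg15 (chr4:156200769-156201068, minus strand) carried 3 overlapping matches in 1 run, and Oas1a (chr5:120907476-120907775, minus strand), Irgm1 (chr11:48871371-48871670, minus strand) and Bst2 (chr8:71537423-71537722, minus strand) carried 2 overlapping ones. Ifit3 (chr19:34583279-34583578, plus strand) carried 2 separate matches that read on the opposite strand, while Irf7 (chr7:141266375-141266674, minus strand) held none in this window although it had the largest fold change in males.
Isg15: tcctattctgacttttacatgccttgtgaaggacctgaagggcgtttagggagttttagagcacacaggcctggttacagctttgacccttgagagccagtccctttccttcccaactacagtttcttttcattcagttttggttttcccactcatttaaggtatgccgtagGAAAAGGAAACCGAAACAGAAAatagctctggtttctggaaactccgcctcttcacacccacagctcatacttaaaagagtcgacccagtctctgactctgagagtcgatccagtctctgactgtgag
Oas1a: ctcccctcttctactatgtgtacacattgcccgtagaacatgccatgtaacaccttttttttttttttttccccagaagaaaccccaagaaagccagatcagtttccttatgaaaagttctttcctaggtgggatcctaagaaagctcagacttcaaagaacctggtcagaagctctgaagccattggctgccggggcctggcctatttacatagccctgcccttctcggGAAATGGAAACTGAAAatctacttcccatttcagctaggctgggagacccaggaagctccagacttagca
Irgm1: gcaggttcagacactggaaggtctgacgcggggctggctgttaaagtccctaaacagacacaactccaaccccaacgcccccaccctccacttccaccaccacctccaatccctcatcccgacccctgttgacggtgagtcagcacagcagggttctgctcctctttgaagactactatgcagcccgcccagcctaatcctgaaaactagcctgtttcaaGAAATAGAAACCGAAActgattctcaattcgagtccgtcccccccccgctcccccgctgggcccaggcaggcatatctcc
Bst2: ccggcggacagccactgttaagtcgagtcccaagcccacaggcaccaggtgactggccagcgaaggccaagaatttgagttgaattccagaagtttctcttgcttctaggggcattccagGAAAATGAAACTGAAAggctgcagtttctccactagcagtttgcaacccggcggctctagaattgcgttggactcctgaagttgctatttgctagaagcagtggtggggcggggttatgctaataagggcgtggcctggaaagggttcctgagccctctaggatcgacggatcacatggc
Ifit3: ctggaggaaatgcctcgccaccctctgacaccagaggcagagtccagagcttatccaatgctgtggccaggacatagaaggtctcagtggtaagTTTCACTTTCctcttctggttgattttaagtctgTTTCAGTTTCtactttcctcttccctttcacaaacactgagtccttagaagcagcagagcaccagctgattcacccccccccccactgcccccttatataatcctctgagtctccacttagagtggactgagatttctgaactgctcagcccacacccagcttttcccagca
Irf7: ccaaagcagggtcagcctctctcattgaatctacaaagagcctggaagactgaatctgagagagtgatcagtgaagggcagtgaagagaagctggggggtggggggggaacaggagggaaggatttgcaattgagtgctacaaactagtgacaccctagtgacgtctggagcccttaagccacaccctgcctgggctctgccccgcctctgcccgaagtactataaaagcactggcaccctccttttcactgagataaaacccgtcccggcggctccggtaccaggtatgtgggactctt

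The mice of a group differed among themselves in the whole set at once. The mean log2 CPM (counts scaled to the library total after TMM normalization) over the 50 genes was 2.49 ± 0.26 (SD) in ND females and 3.10 ± 0.29 in HFD females, and 2.24 ± 0.05 in ND males and 2.57 ± 0.23 in HFD males. Among HFD females the mean was 3.33, 3.12, 2.63, 3.33 and 3.09 for mice 1 to 5, while ND females ran from 2.12 to 2.84. HFD female 3 thus lay within the ND range, and it was the lowest of its group for 43 of the 50 genes. At the other end of the ND group, ND female 1 (2.84) was the highest of its group for 24 genes and ND female 4 (2.12) the lowest for 30. In males the ND mice lay close together, from 2.19 to 2.29, and all 4 HFD males lay above them, at 2.65, 2.86, 2.42 and 2.37. Counted gene by gene, HFD females 1 to 5 stood above every ND female for 47, 38, 6, 46 and 35 of the 50 genes, and HFD males 1 to 4 stood above every ND male for 30, 33, 11 and 16.

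**Figure D2:**
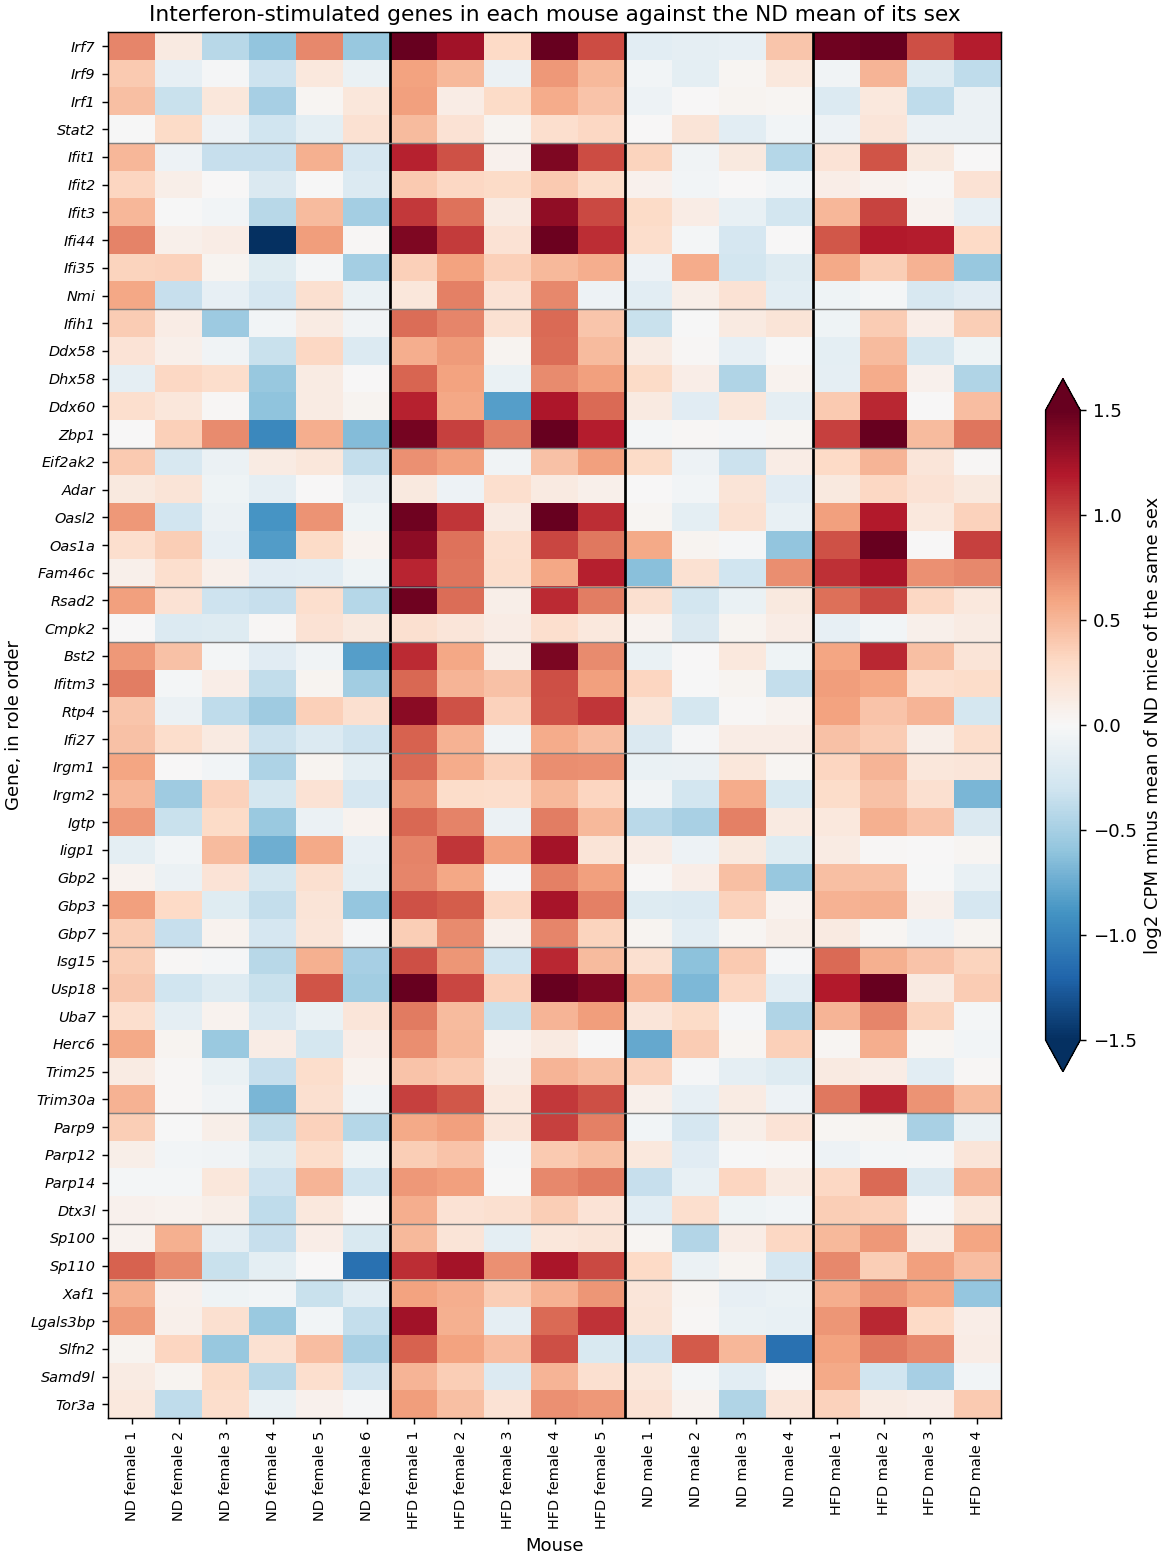
Log2 CPM of each interferon-stimulated gene (rows, by role) in each of the 19 mice (columns), minus the ND mean of the same sex, with colours clipped at 1.5 either way. HFD females 1, 2, 4 and 5 are higher over nearly every row, and HFD female 3 is close to the ND females.

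Complete separation of the groups was rare, and its count moved with single mice. Every HFD female lay above every ND female in RPM for 3 of 49 genes, namely Ifi35, Fam46c and Dtx3l, where 0.264% of all genes did so. The table lists only genes over 1 RPM in at least 2 libraries. Ifi35 met that through HFD females 2 and 5 alone, so its separation was favoured in advance. In males this held for 3 of 46, namely Irf7, Bst2 and Trim30a (background 1.53%). Only Zbp1 of the 50 was separated in both sexes, where 0.0134% of all genes were. It was over 1 RPM only in HFD females 1 and 4, so the same listing rule favoured its separation in females. Without HFD female 3 the count in females was 30 of 49 (background 0.908%), and without ND female 1 it was 9 (0.759%). In males it was 10 without HFD male 3 (2.84%), 9 without HFD male 4 (2.53%), 7 without ND male 1 or ND male 3 (2.29% and 3.01%) and 5 without ND male 4 (2.36%).

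Of the 4 transcription factors, 4 were called higher in females, 1 in males and 2 with both sexes. Irf7 drives the amplification of type I interferon production and is itself an interferon target. HFD females had 10.9, 7.11, 3.57, 9.17 and 5.94 RPM of Irf7, and ND females had 1.84 to 4.95 RPM (median 2.67). Only HFD female 3 overlapped the ND range. HFD males had 4.98, 6.21, 3.42 and 4.11 RPM against 1.59, 1.54, 1.56 and 2.36 in ND males, and the 2 groups did not overlap. The log2 fold change of Irf7 was 1.20 (SE 0.33) in females, 1.45 (SE 0.24) in males and 1.28 (SE 0.23, adjusted p = 0.0612) with both sexes. Exons of Irf7 overlap those of Phrf1 on the opposite strand, and no strand setting of the counting is known, so some reads may be shared. Irf9, a DNA-binding subunit of the factor that type I interferon activates, had 18.5, 16.9, 11.3, 19.2 and 17.3 RPM in HFD females and 9.61 to 15.9 RPM (median 11.8) in ND females. Again HFD female 3 was the only one not above every ND female. In males the groups lay over each other, with 10.4, 14.95, 9.27 and 8.33 RPM on HFD and 10.997, 9.74, 11.01 and 12.2 on ND. Its log2 fold change was 0.43 (SE 0.14) in females, 0.00 (SE 0.18, not called) in males and 0.27 (SE 0.12, adjusted p = 0.364) with both sexes, and its exons overlap those of Rnf31. With the mean of the microglia markers described further on as a covariate, the difference of Irf9 with both sexes was gone, and its call with both sexes was lost without any 1 of 10 mice (HFD females 1, 2, 4 and 5, HFD male 2, ND females 2, 3, 4 and 6 and ND male 2), at 0.22 to 0.26. Stat2, which binds Irf9, and Irf1, an early interferon gamma target, were called higher in females at 0.26 and 0.37, and in males they stood at -0.02 and -0.12 without passing the test. The call of Irf1 in females was lost without HFD female 1, 4 or 5 or ND female 2, 4 or 5, at 0.29 to 0.37.

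Among the IFIT family and other induced cytoplasmic proteins, 5 of 6 were called higher in females, 1 of 5 in males and 5 of 6 with both sexes. Ifi44, a cytoplasmic protein that interferon induces strongly, is a low-count gene here. It was at 4.13, 3.17, 1.71, 4.36 and 3.38 RPM in HFD females against 0.384 to 2.54 RPM (median 1.59) in ND females. In males it was at 1.75, 2.04, 2.05 and 1.08 RPM on HFD and 1.09, 0.821, 0.682 and 0.860 on ND. The overlap came from HFD female 3 and HFD male 4. Its log2 fold change was 0.99 (SE 0.33) in females and 1.03 (SE 0.30) in males. Ifit1, which binds the ends of foreign RNA and stops its translation, was at 11.5, 9.99, 5.28, 13.7 and 10.3 RPM in HFD females and 3.92 to 7.57 RPM (median 4.52) in ND females. HFD female 3 lay below ND females 1 and 5, and the other 4 HFD females lay above all ND females. Ifit1 was at 4.70, 7.67, 4.39 and 4.11 RPM in HFD males and 5.35, 3.90, 4.48 and 3.01 in ND males, where HFD male 2 alone stood above the ND range. The log2 fold change was 0.93 (SE 0.24) in females, 0.35 (SE 0.24, not called) in males and 0.73 (SE 0.19, adjusted p = 0.146) with both sexes. Its relatives Ifit3 and Ifit2, which lie next to each other in the genome, were called higher with both sexes at 0.70 and 0.23. Reads of Ifit3 may be shared with a near-identical copy. Ifi35 and Nmi are proteins that bind each other. Ifi35 was called higher at 0.46, but it was over 1 RPM only in HFD females 2 and 5, through which alone it was listed. Nmi had the largest p of the 50 at 0.17 (SE 0.15, adjusted p = 0.695, not called). Nmi was at 2.90, 4.36, 2.95, 4.30 and 2.43 RPM in HFD females against 1.96 to 3.88 RPM (median 2.38) in ND females. The males had 2.95, 2.91, 2.54 and 2.74 RPM on HFD and 2.87, 3.28, 3.605 and 2.79 on ND, where the groups overlapped, with HFD males 3 and 4 under every ND male and ND males 2 and 3 above every HFD male.

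All nucleic acid sensors were called higher in females (4 of 4 tested) and with both sexes (5 of 5), and 0 of 4 in males. Zbp1, a sensor of left-handed nucleic acids that can trigger cell death, gave the largest fold change of the 50. By mean RPM it was also the least abundant in every group but HFD females, where Ifi35 was lower (0.952 against 1.06). Zbp1 had 1 to 9 reads in ND females, 8 to 30 in HFD females, 1 in each ND male and 2 to 8 in HFD males. In RPM that was 1.09, 0.774, 0.621, 1.92 and 0.894 in HFD females and 0.0769 to 0.617 RPM (median 0.365) in ND females. Male values were 0.369, 0.777, 0.195 and 0.294 RPM on HFD and 0.0991, 0.103, 0.0974 and 0.107 on ND. No HFD mouse fell into the ND range of its sex, although HFD female 3 at 0.621 and ND female 3 at 0.617 nearly met, with 8 and 9 reads. The table lists only genes over 1 RPM in at least 2 libraries, and Zbp1 met that through HFD females 1 and 4 alone. Its fold change and its separation in females were thus favoured by the listing rule. Its counts were too low for the fit in either sex alone, and with both sexes the log2 fold change was 1.65 (SE 0.34, adjusted p = 0.0824). With 1 mouse left out, Zbp1 was fitted in 9 of 19 such fits and was called in each of them. In the others its counts were too low. Ifih1 encodes MDA5, a cytoplasmic sensor of long double-stranded RNA. It was at 14.48, 13.3, 9.32, 14.6 and 10.9 RPM in HFD females and 5.62 to 10.4 RPM (median 8.16) in ND females. The single ND female above any HFD female was ND female 1. In males, at 6.82, 8.93, 7.42 and 9.31 RPM on HFD and 5.85, 7.08, 7.79 and 8.27 on ND, the ranges crossed. The log2 fold change was 0.62 (SE 0.15) in females, 0.20 (SE 0.15, not called) in males and 0.46 (SE 0.12, adjusted p = 0.146) with both sexes. Ddx58 (RIG-I), Dhx58 (LGP2) and the helicase Ddx60 were called higher with both sexes at 0.34, 0.39 and 0.72.

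The enzymes and effectors that act on RNA were called higher in 4 of 5 cases in females, 3 of 4 in males and 5 of 5 with both sexes. Fam46c is a poly(A) polymerase that interferon induces. Its level was 4.92, 3.80, 2.56, 3.27 and 5.04 RPM in HFD females and 1.84 to 2.56 RPM (median 2.13) in ND females. Here the female groups did not overlap, although HFD female 3 at 2.562 RPM and ND female 2 at 2.558 RPM were nearly equal. In males it was at 2.58, 2.72, 1.85 and 1.96 RPM on HFD and 0.694, 1.33, 0.877 and 1.93 on ND, with HFD male 3 under ND male 4. The log2 fold change of Fam46c was 0.87 (SE 0.18) in females, 0.96 (SE 0.31) in males and 0.90 (SE 0.16, adjusted p = 0.0612) with both sexes. Oas1a makes the short oligoadenylates that switch on RNase L. It was at 3.04, 2.04, 1.32, 2.37 and 2.04 RPM in HFD females and 0.538 to 1.45 RPM (median 1.24) in ND females, with HFD female 3 among the ND mice. The males had 0.922, 1.84, 0.391 and 0.980 RPM on HFD and 0.694, 0.410, 0.390 and 0.215 on ND, too few reads for a fit in males alone. Oas1a gave 0.91 (SE 0.25) in females and 1.0 (SE 0.24, adjusted p = 0.126) with both sexes, and its reads may be shared with its near-identical Oas1 neighbours. Oasl2, its ISG15-like relative, was called higher in both sexes alone, at 1.04 in females and 0.63 in males. Eif2ak2 (PKR), the kinase that stops translation when it meets double-stranded RNA, was called higher with both sexes at 0.38. Adar, which edits adenosine to inosine in double-stranded RNA, was the most abundant per length of merged GENCODE exons. That ranking covers all of the 50 but Fam46c, for which no exon length was available. Adar was at 32.9 RPM per kb in ND females, 35.2 in HFD females, 34.0 in ND males and 38.2 in HFD males. Its log2 fold change was small, at 0.15 (SE 0.06, adjusted p = 0.261) with both sexes, and its exons overlap those of Chrnb2 on the opposite strand.

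Rsad2 (viperin), a radical SAM enzyme that makes a chain-terminating nucleotide, lies beside Cmpk2, a mitochondrial nucleotide kinase. Rsad2 was at 6.95, 4.43, 2.56, 5.45 and 4.28 RPM in HFD females and 1.76 to 3.76 RPM (median 2.40) in ND females, and HFD female 3 alone lay in the ND range. HFD males had 3.50, 3.79, 2.34 and 2.16 RPM and ND males 2.38, 1.54, 1.75 and 2.15, with HFD males 3 and 4 under ND male 1. Its log2 fold change was 0.91 (SE 0.25) in females, 0.63 (SE 0.25) in males and 0.81 (SE 0.18, adjusted p = 0.119) with both sexes, and the call in males was lost without HFD male 1 or 2 or ND male 2 or 3, at 0.48 to 0.59. Its neighbour Cmpk2 gave 0.11 (SE 0.06, adjusted p = 0.476, not called) with both sexes and was called higher in females alone, at 0.18.

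The 4 membrane-bound antiviral proteins were all called higher in females and with both sexes, and 3 of 4 in males. Bst2 (tetherin) ties budding virus particles to the cell surface. It was at 9.34, 6.33, 4.42, 11.5 and 7.09 RPM in HFD females and 2.30 to 6.66 RPM (median 4.19) in ND females. HFD females 2 and 3 lay under ND female 1. Male values were 3.78, 5.34, 3.32 and 2.84 RPM on HFD and 2.38, 2.46, 2.73 and 2.36 on ND, with no overlap. Bst2 gave log2 fold changes of 0.80 (SE 0.27) in females, 0.66 (SE 0.23) in males and 0.76 (SE 0.19, adjusted p = 0.130) with both sexes. Without HFD male 2 its value in males was 0.44 and not called. Rtp4, a chaperone of membrane receptors that is also antiviral, was at 6.80, 5.07, 3.26, 5.13 and 5.62 RPM in HFD females and 1.69 to 3.45 RPM (median 2.72) in ND females. HFD female 3 was again the only one inside the ND range. In males it was at 3.32, 2.82, 3.03 and 1.76 RPM on HFD and 2.58, 1.74, 2.14 and 2.26 on ND, and HFD male 4 was close to the lowest ND male. The fold changes were 0.95 (SE 0.21) in females, 0.36 (SE 0.24, not called) in males and 0.75 (SE 0.17, adjusted p = 0.114) with both sexes. Ifitm3, which blocks virus entry from endosomes, was called higher in both sexes alone, at 0.63 in females and 0.43 in males, and so was Ifi27, a small mitochondrial and nuclear membrane protein, at 0.48 and 0.30.

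**Figure D3:**
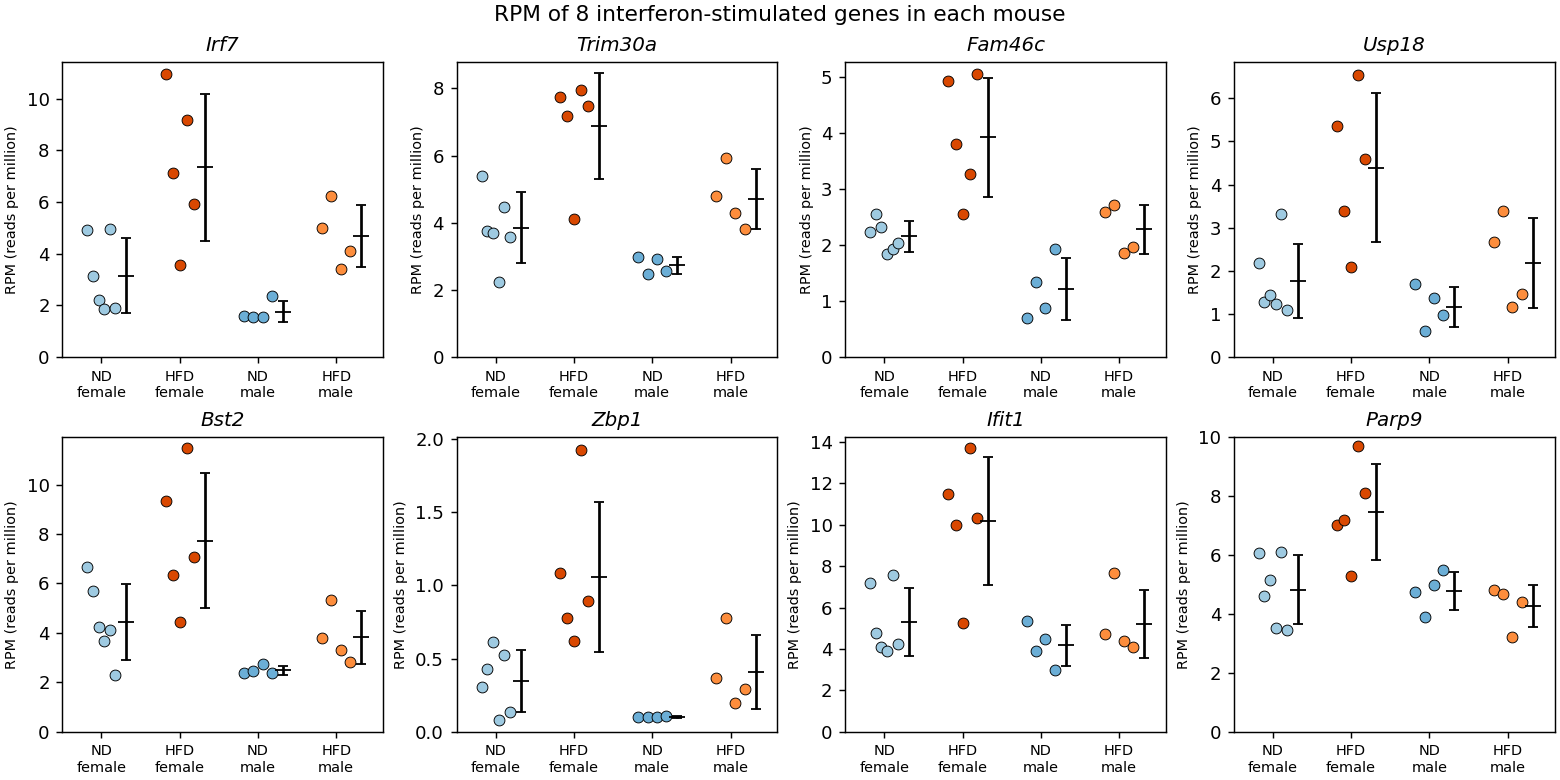
RPM of 8 interferon-stimulated genes (Irf7, Trim30a, Fam46c, Usp18, Bst2, Zbp1, Ifit1 and Parp9) in each mouse, by diet and sex, with bars of mean ± SD. HFD female 3 is the lowest HFD female for all 8 genes, and for Parp9 the male groups lie over each other.

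Of the 7 interferon-induced GTPases, which act against parasites inside vacuoles, 6 were called higher in females, 1 in males and 6 with both sexes. Irgm1 regulates the other immunity-related GTPases. HFD females had 22.9, 18.6, 16.1, 20.7 and 20.7 RPM against 9.07 to 19.1 RPM (median 12.7) in ND females, where only ND female 1 stood above any HFD female. HFD males had 14.1, 15.4, 12.4 and 12.9 RPM and ND males 10.9, 10.6, 12.6 and 11.6, with HFD male 3 just under ND male 3. The log2 fold change of Irgm1 was 0.60 (SE 0.15) in females, 0.30 (SE 0.11) in males and 0.49 (SE 0.11, adjusted p = 0.111) with both sexes. In males it was not called without HFD male 2 (0.23) or ND male 1 (0.26). Gbp3 is a guanylate-binding protein. It was at 12.4, 11.9, 7.76, 15.1 and 10.9 RPM in HFD females and 4.19 to 9.69 RPM (median 6.57) in ND females, and at 7.56, 7.38, 5.37 and 4.41 RPM in HFD males and 4.76, 4.51, 6.62 and 5.48 in ND males. The female groups overlapped through HFD female 3 and ND female 1, and the male groups overlapped widely. Gbp3 gave 0.82 (SE 0.21) in females, 0.24 (SE 0.21, not called) in males and 0.61 (SE 0.17, adjusted p = 0.156) with both sexes. Its neighbour Gbp7 and its relative Gbp2 were called higher with both sexes at 0.29 and 0.42, and close relatives of the GBP family may share reads. Igtp was called higher at 0.40, while Irgm2, whose exons overlap those of Igtp on the same strand, stood at 0.25 (SE 0.16, adjusted p = 0.532, not called).

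In the ISG15 system and the TRIM ubiquitin ligases, 5 of 6 genes were called higher in females, 2 in males and 5 with both sexes. Trim30a, a mouse TRIM protein that dampens Toll-like receptor signalling, had the smallest p of the 50 with both sexes. It was at 7.75, 7.18, 4.11, 7.95 and 7.47 RPM in HFD females and 2.23 to 5.39 RPM (median 3.73) in ND females. HFD female 3 stood far below the other 4 HFD females. The males had 4.80, 5.92, 4.30 and 3.82 RPM on HFD and 2.97, 2.46, 2.92 and 2.58 on ND, without overlap. The log2 fold change was 0.83 (SE 0.20) in females, 0.82 (SE 0.19) in males and 0.83 (SE 0.14, adjusted p = 0.0612) with both sexes, and Trim30a has close relatives that may share its reads. Usp18 removes ISG15 from proteins and damps the interferon receptor. Its level was 5.36, 3.38, 2.10, 6.54 and 4.60 RPM in HFD females against 1.08 to 3.32 RPM (median 1.36) in ND females, with HFD female 3 under ND females 1 and 5. Male values were 2.67, 3.40, 1.17 and 1.47 RPM on HFD against 1.68, 0.615, 1.36 and 0.967 on ND, where HFD males 3 and 4 lay in the ND range. Usp18 gave 1.30 (SE 0.32) in females, 0.94 (SE 0.39) in males and 1.19 (SE 0.26, adjusted p = 0.111) with both sexes, and was no longer called in males without HFD male 1 or 2 or ND male 2 or 4, at 0.63 to 0.86. Isg15 itself and Uba7, the enzyme that activates it, were called higher with both sexes at 0.60 and 0.44, as was the ligase Trim25, which also acts on RIG-I, at 0.23. Herc6, the ligase that attaches ISG15 in mice, was the exception. It was at 36.3, 30.9, 22.7, 24.4 and 22.5 RPM in HFD females and 15.6 to 32.8 RPM (median 23.2) in ND females. Males had 23.0, 31.7, 22.4 and 22.0 RPM on HFD and 13.7, 29.3, 22.8 and 29.3 on ND. The groups overlapped in both sexes, and the difference with both sexes was 0.19 (SE 0.16, adjusted p = 0.667, not called).

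The 4 genes around PARP9 and DTX3L, enzymes that attach ADP-ribose and ubiquitin and work as a pair, were all called higher in females and with both sexes, and 0 of 4 in males. Dtx3l was at 13.6, 10.7, 10.9, 12.1 and 10.9 RPM in HFD females and 6.99 to 10.54 RPM (median 9.59) in ND females, which did not overlap. In males it was at 10.6, 10.1, 8.01 and 9.31 RPM on HFD and 7.63, 9.74, 7.79 and 8.06 on ND, which did. Its log2 fold change was 0.31 (SE 0.10) in females, 0.23 (SE 0.13, not called) in males and 0.28 (SE 0.08, adjusted p = 0.159) with both sexes. Parp14, a mono-ADP-ribosyltransferase, was at 9.63, 9.29, 5.98, 10.1 and 10.6 RPM in HFD females and 4.77 to 8.85 RPM (median 5.88) in ND females. HFD female 3 lay under ND females 3 and 5, and the rest of its group above all ND females. In males Parp14 was at 6.27, 8.84, 4.198 and 7.25 RPM on HFD and 4.06, 4.62, 6.24 and 5.59 on ND. The fold change was 0.56 (SE 0.17) in females, 0.41 (SE 0.23, not called) in males and 0.50 (SE 0.14, adjusted p = 0.162) with both sexes. Parp9 and Dtx3l share exon sequence on opposite strands, so reads of the pair may be mixed. The call of Parp9 with both sexes was lost without HFD female 4 or 5 or ND female 4 or 6, at 0.26 to 0.32.

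Sp110 and Sp100, proteins of nuclear bodies, were both called higher with both sexes. Sp110 was at 1.52, 1.69, 1.09, 1.67 and 1.405 RPM in HFD females and 0.203 to 1.27 RPM (median 0.589) in ND females, and at 1.20, 0.874, 1.07 and 0.980 RPM in HFD males and 0.892, 0.615, 0.682 and 0.537 in ND males. HFD female 3 and HFD male 2 lay in the ND range of their sex. Sp110 gave 1.06 (SE 0.33) in females and 0.91 (SE 0.23, adjusted p = 0.130) with both sexes, and was not fitted in males alone for low counts. Sp100 differed by sex in its calls, at 0.18 (SE 0.17, not called) in females and 0.48 (SE 0.21) in males, and its interaction of diet and sex did not pass the test at -0.30 (SE 0.27).

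Of the other 5 interferon-induced proteins, 4 were called higher in females, 1 in males and 4 with both sexes. Tor3a is an ATPase of the torsin family in the endoplasmic reticulum. It was at 12.1, 10.6, 8.93, 12.6 and 12.4 RPM in HFD females and 5.88 to 9.66 RPM (median 7.95) in ND females, with HFD female 3 under ND female 3. The males had 9.77, 8.06, 8.01 and 10.2 RPM on HFD and 9.31, 7.90, 5.55 and 8.81 on ND, where the groups overlapped. Tor3a gave 0.53 (SE 0.12) in females, 0.23 (SE 0.15, not called) in males and 0.41 (SE 0.10, adjusted p = 0.126) with both sexes. Lgals3bp, a secreted glycoprotein that binds galectins, was among the most abundant per length of exon, again of all but Fam46c. It was at 12.1 RPM per kb in ND females and 20.2 in HFD females. HFD females had 79.5, 47.6, 29.8, 59.8 and 71.0 RPM and ND females 22.1 to 51.3 RPM (median 33.6), and HFD females 2 and 3 lay below ND female 1. HFD males had 33.7, 44.8, 25.5 and 22.7 RPM and ND males 25.3, 21.2, 19.6 and 19.8, where HFD males 1 to 3 lay above all ND males. The fold change of Lgals3bp was 0.74 (SE 0.25) in females, 0.60 (SE 0.21) in males and 0.69 (SE 0.19, adjusted p = 0.157) with both sexes, and in males it was not called without ND male 3 or 4, at 0.56 either way. Xaf1, which antagonizes an inhibitor of apoptosis, and the Schlafen protein Slfn2 were called higher with both sexes at 0.48 and 0.52. Samd9l, a restriction factor, gave 0.17 (SE 0.13, adjusted p = 0.637, not called).

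Whether diet acted differently in the sexes was tested by the interaction of diet and sex. It passed an unadjusted p of 0.05 for 5 of 50 genes, all with the larger value in females, against 2.38% of all genes in that direction and 2.83% in the other. The interaction term was above 0 for 43 of the 50, with a median of 0.27, against 0.00 over all genes tested. The genes moved together from mouse to mouse, so their signs are not independent of each other. The smallest adjusted p among the 50 in edgeR was 0.903. Parp9 gave the largest term, 0.76 (SE 0.27). It was at 7.02, 7.18, 5.28, 9.69 and 8.11 RPM in HFD females and 3.45 to 6.11 RPM (median 4.87) in ND females. Male values were 4.80, 4.66, 3.22 and 4.41 RPM on HFD and 4.76, 3.90, 4.97 and 5.48 on ND. The 4 HFD females other than HFD female 3 lay above all ND females, and every HFD male lay within the ND male range or below it. Iigp1, an immunity-related GTPase, had a term of 0.74 (SE 0.35). Its levels were 3.98, 4.996, 3.57, 5.71 and 2.68 RPM in HFD females, 1.31 to 3.55 RPM (median 2.16) in ND females, 2.40, 2.14, 2.15 and 2.25 RPM in HFD males and 2.48, 2.05, 2.44 and 1.93 in ND males. HFD female 5, not HFD female 3, was the lowest HFD female here. Ddx58 had a term of 0.50 (SE 0.24), from 10.8, 11.5, 7.45, 13.3 and 10.4 RPM in HFD females and 5.69 to 9.31 RPM (median 7.50) in ND females. Its male groups overlapped at 6.09, 9.03, 5.47 and 6.47 RPM on HFD and 7.63, 6.77, 6.14 and 6.77 on ND. Irf1 had a term of 0.49 (SE 0.23). It was at 9.63, 6.68, 7.53, 9.24 and 8.49 RPM in HFD females and 4.30 to 8.54 RPM (median 6.75) in ND females, and at 6.09, 7.57, 5.27 and 6.66 RPM in HFD males and 6.94, 7.08, 7.21 and 7.31 in ND males. HFD male 2 was the only HFD male above the ND males, and HFD males 1, 3 and 4 lay below all of them. Parp12, another mono-ADP-ribosyltransferase, had a term of 0.32 (SE 0.15). It was at 14.2, 14.6, 10.6, 14.4 and 15.1 RPM in HFD females and 9.45 to 13.3 RPM (median 10.7) in ND females, and at 11.7, 11.6, 11.8 and 14.1 RPM in HFD males and 14.4, 10.9, 12.2 and 12.6 in ND males. HFD female 3 alone among HFD females lay in the ND female range, and all 4 HFD males lay within the ND male range. The count of 5 moved with single mice. It was 1 without HFD female 1, HFD female 4, HFD male 3 or ND female 4, and 2 without HFD female 2, HFD male 1, HFD male 4 or ND female 2. It was 3 without ND female 3, ND female 6 or ND male 1, 11 without ND female 1 and 13 without HFD female 3. The shares of all genes called in these fits are not given here, so the counts show only how the 5 moved. The term of Parp9 stayed called without any 1 of the mice, while those of the other 4 genes were lost in 12 to 14 of 19 such fits.

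Levels were also compared between the sexes, apart from diet. With a term for diet, 30 of 50 were called higher in females and 0 lower, where 14.4% of all genes were called higher. The median difference of the 50 was 0.39 on the log2 scale, against 0.00 over all genes, and 47 of 50 were above 0. At an adjusted p of 0.05 in edgeR 17 of the 50 passed (background 11.2%). The largest differences were those of Zbp1 (1.45), Oas1a (1.19), Ifi44 (0.96) and Bst2 (0.94), and Fam46c had the smallest p (0.81, adjusted p = 0.00424). Zbp1 was over 1 RPM only in HFD females 1 and 4, so the listing rule of the table favoured a higher level in females. In ND mice alone the range of the mean over the 50 genes in males, 2.19 to 2.29, lay inside that of females, 2.12 to 2.84. Female libraries were the deeper ones, so sex and depth cannot be told apart. Marker lists also differed by sex: 9 of 12 microglia markers and 10 of 12 markers of amyloid-associated microglia were called higher in females, and 7 of 7 markers of the olfactory bulb were called lower. With the microglia mean as a covariate the count of 30 was 6 (11.6% of all genes), and with the olfactory bulb mean it was 17 (6.38%).

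Interferons, their receptors and further targets were looked up in the same fits. Of 113 genes of the pathway outside the 50, 83 were in the table, and with both sexes 34 were called higher and 0 lower (background 5.99% and 6.3%), and the median log2 fold change of the 83 was 0.21. The 34 became 6 with the microglia marker mean as a covariate (3.99% of all genes), 9 with the erythrocyte mean (5.08%) and 17 with the olfactory bulb mean (3.86%). In females the count was 31 of 83 (background 3.92% higher) and in males 5 of 72 (background 4.2% higher). None of the 13 interferon genes searched, type I, type II or type III, was in the table, which lists genes over 1 RPM in at least 2 libraries. Of 8 receptors and Janus kinases 1 was called higher, the interferon gamma receptor chain Ifngr1, at 0.16 (SE 0.06, adjusted p = 0.241). Il10rb and Jak2 did not pass the test, at 0.16 and -0.08. Among transcription factors outside the 50, Irf5 was called higher at 0.32 (SE 0.10, adjusted p = 0.181), and so was Nlrc5, a transactivator of MHC class I genes, at 0.56 (SE 0.18, adjusted p = 0.212). Of 12 sensing adaptors and kinases, 4 were called higher. The endosomal receptors Tlr9 and Tlr7 gave 0.50 and 0.36, their chaperone Unc93b1 gave 0.26, and Mb21d1 (cGAS), the cytoplasmic DNA sensor, gave 0.41. None of 8 negative regulators was called, with the smallest p for the phosphatase Ptpn6 at 0.31 (SE 0.16, adjusted p = 0.446, not called). Of 48 other interferon-stimulated genes in the table, 26 were called higher. Among the 48, Oas1b and Phf11b were over 1 RPM only in HFD mice. Oas1b reached at most 0.909 RPM in ND females and 0.594 in ND males, and Phf11b 0.788 and 0.513. The listing rule thus favoured a higher level on HFD for such genes, also within the 83. The 3 with the smallest p were the chemokine Cxcl10, which draws T cells, at 1.36 (SE 0.30, adjusted p = 0.118), Rnf213, a large ubiquitin ligase, at 0.41 and Lgals9, a galectin, at 0.41.

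Markers of some other cells moved with diet in the same libraries. Of 12 microglia markers 9 were called higher with both sexes (median log2 fold change 0.26), and of 12 markers of amyloid-associated microglia 10 were (median 0.63). The latter summed to 476 to 763 RPM in ND females, 558 to 918 in HFD females, 387 to 413 in ND males and 405 to 684 in HFD males. The summed level of the microglia markers was 563 to 744 RPM in ND females, 578 to 867 in HFD females, 492 to 589 in ND males and 505 to 710 in HFD males, and none was at 0 in any library. HFD female 3, with 578 RPM, was the lowest HFD female here too, and ND female 1, with 744 RPM, the highest ND female. With the mean of the microglia list as a covariate, 19 of the 50 interferon-stimulated genes were called higher with both sexes (3.99% of all genes), 18 of 49 in females (2.72%) and 3 of 46 in males (1.98%). Hemoglobin genes and Alas2, the erythrocyte markers, were called higher for 4 of 4 with both sexes and in females, and for 0 of 3 in males. Their sum was 0.767 to 9.02 RPM in ND females, 3.65 to 88.2 in HFD females, 3.47 to 18.1 in ND males and 3.87 to 33.8 in HFD males, and 2 of the 4 were at 0 in a library of ND females. With their mean as a covariate, 26 of the 50 were called higher with both sexes (5.08% of all genes), 15 of 49 in females (4.37%) and 13 of 46 in males (3.46%). Neutrophil markers were called higher for 3 of 3 with both sexes and came to 84.0 RPM in HFD female 1, where the median of HFD females was 0.985 RPM. In the other groups they ran from 0.426 to 3.38 RPM in ND females, 1.29 to 4.62 in ND males and 1.29 to 7.94 in HFD males. Without HFD female 1, 34 of 49 interferon-stimulated genes were called higher in females (4.22% of all genes). Of 10 T and NK cell markers 8 were not in the table, among them Cd3e, Cd3d and Cd3g, and neither of the other 2 was called. With both sexes, no marker was called for cortical excitatory neurons (7 tested), border macrophages and monocytes (4) or meninges (5). In males alone, 1 of 7 cortical excitatory neuron markers was called higher and 1 of 3 border macrophage and monocyte markers lower. Again with both sexes, 1 of 7 astrocyte markers was called higher and 1 lower, as of 8 endothelial ones. Of 5 oligodendrocyte markers 1 was called higher, and of 5 choroid plexus markers tested 1 was called lower. Of 5 B cell markers the only one in the table, Cd22, was called higher. Olfactory bulb markers were called lower on HFD for 6 of 7 with both sexes, at 22.8 to 112 RPM in ND females, 22.0 to 24.2 in HFD females, 143 to 375 in ND males and 24.5 to 280 in HFD males. With their mean as a covariate 35 of the 50 interferon-stimulated genes were called higher with both sexes (3.86% of all genes), 36 of 49 in females (1.97%) and 7 of 46 in males (2.23%). The part of these cells and tissues in the diet result was not tested.

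**Figure D4:**
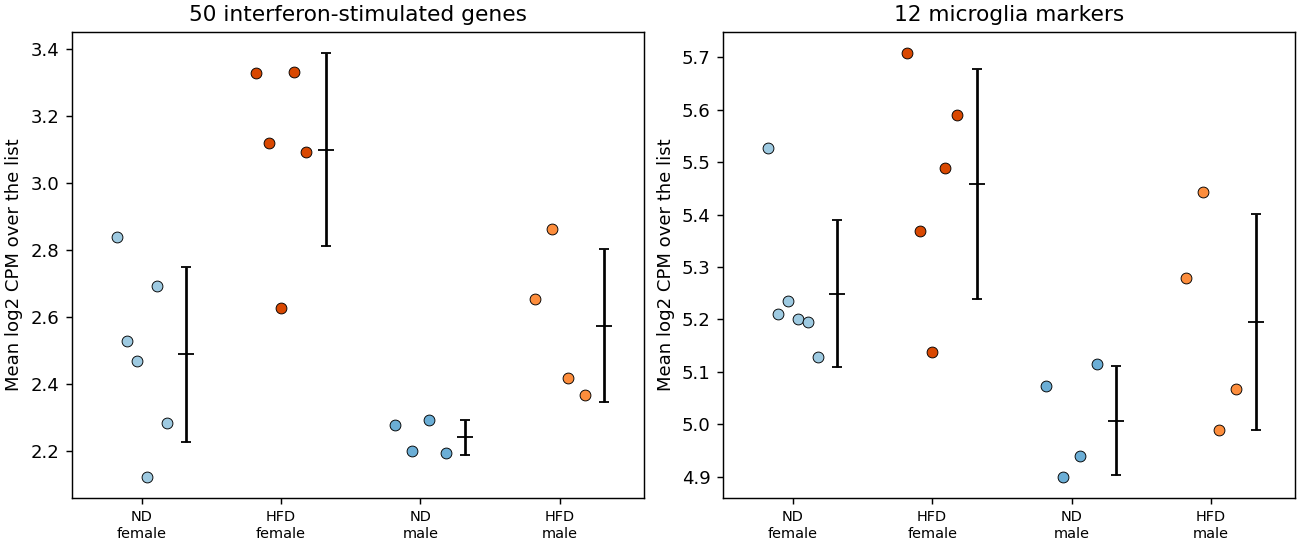
Mean log2 CPM over the 50 interferon-stimulated genes and over 12 microglia markers in each mouse, by diet and sex. HFD female 3 (2.63 for the interferon-stimulated genes) lies in the ND female range of 2.12 to 2.84, and the 4 HFD males (2.37 to 2.86) lie above the 4 ND males (2.19 to 2.29).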

How the data were processed

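Cortex RNA of 19 mice was analysed with 1 library each. The submitters' processing notes name Subread (1.4.0), featureCounts and build mm9. For every library the authors deposited each gene's read count and its RPM. No annotation or strand setting is given in the sources used here. All 14996 listed genes exceeded 1 RPM in at least 2 libraries, and library totals were recovered from the deposited counts and RPM. No column was left out. Genes of the X and Y chromosomes matched the labelled sex.

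Counts were tested in edgeR 4.0.16 under R 4.3.3 by its quasi-likelihood method (robust fit with statmod 1.5.0, TMM scaling, filterByExpr with a minimum count of 10 and a minimum total count of 15), and p-values were adjusted by Benjamini-Hochberg over all genes tested. Females and males were fitted alone, then together with terms for sex and diet. The interaction of diet and sex came from a separate fit of all mice with that term added. Each SE was obtained as the log2 fold change, without sign, over the root of its F statistic. Mean log2 CPM used a prior count of 2. The test was tried on simulated counts first. Biological variation between mice came to a coefficient of 11.1% for females and 10.1% for males. The labels name separate mice, so p-values measure the spread between mice.

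Fully described were, in each role group, the 2 genes with the smallest p with both sexes (1 in groups of 2), the 2 with the largest p of all, those with an interaction p under 0.05, and 3 genes of each pathway list. The 50 genes, the lists and this rule were chosen with earlier results of these data known. Alternatives were DESeq2 1.42.0, the likelihood ratio test, limma-voom (limma 3.58.1), other scaling and filters, left-out mice and covariates. Figures used matplotlib 3.10.9. One gene of the pathway lists is not reported here.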

Additional observations from a re-analysis of the deposited data

Results flagged for a closer look

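Among 112 groups of mice checked, 1 mouse stood far from the rest of its group in 8, where chance alone gives about 1 in 20. For Trim30a, HFD female 3 was the lowest HFD female at 4.11 RPM, with the next at 7.18 RPM. The same mouse was lowest for Parp14 at 5.98 RPM (next 9.29) and for Parp12 at 10.6 RPM (next 14.2). For Dtx3l, ND female 4 was the lowest ND female at 6.99 RPM (next 9.40). HFD male 2 was the highest HFD male for Ifit1 at 7.67 RPM (next 4.70) and for Herc6 at 31.7 RPM (next 23.0). For Irf7, ND male 4 was the highest ND male at 2.36 RPM (next 1.59), and for Parp12, HFD male 4 was the highest HFD male at 14.1 RPM (next 11.8).

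For 5 genes the diet effect differed between the sexes at an unadjusted p under 0.05 of the interaction in edgeR, and none did at an adjusted p of 0.05, where the smallest was 0.903. The effect was larger in females by 0.49 on the log2 scale for Irf1, 0.50 for Ddx58, 0.74 for Iigp1, 0.76 for Parp9 and 0.32 for Parp12. In the males alone the log2 fold changes of these genes were -0.12, 0.02, 0.04, -0.12 and 0.01, and none of them passed the test.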

How the results depend on the processing

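The counts of genes called higher on HFD kept within 1.5 times of 43 with both sexes, 43 in females and 14 in males under DESeq2, the likelihood ratio test, limma-voom, other scaling and other filters. Covariates moved them. With the microglia marker mean they were 19, 18 and 3, with the erythrocyte mean 26 and 15 (both sexes and females), and with the olfactory bulb mean 7 in males. One fit of all 4 groups gave 8 in males. The 30 genes higher in females than in males were 6 with the microglia and 17 with the olfactory bulb covariate. The 34 pathway genes outside the 50 were 6 with the microglia, 9 with the erythrocyte and 17 with the olfactory bulb covariate. The 5 interactions were 10 without the 2 mice whose identifiers begin with A (ND female 1 and HFD male 1), 2 with DESeq2, 2 with limma-voom and 1 with the erythrocyte covariate. Genes past an adjusted p of 0.05 with both sexes were 0 by edgeR's quasi-likelihood test, 19 by DESeq2, 19 by the likelihood ratio test, 3 with library totals as the only scaling and 2 without the A mice. Separated genes in males were 5 with TMM-scaled CPM. Among the described genes, the log2 fold change of Irf9, both sexes, turned to -0.00542 with the microglia covariate, and that of Herc6 to -0.011 with the olfactory bulb covariate. Why these values moved was not tested. The covariates of erythrocytes and olfactory bulb, all values for the pathway genes, and the counts of separated genes under another scaling or with a mouse left out were chosen after seeing the data.

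Leaving out each mouse in turn gave 35 to 44 genes called higher with both sexes, 34 to 45 in females and 8 to 17 in males, with 8 without HFD male 2. It gave 0 to 5 genes past an adjusted p of 0.05, with 5 without ND female 1, 3 without HFD female 3 and 2 without HFD male 4. Interactions ran from 1 to 13, genes higher in females than in males from 29 to 33, pathway genes from 27 to 40, and separated genes from 3 to 30 in females and 3 to 10 in males. In this section no count carries the share of all genes in the same fit, so these counts show only how the results moved. The difference in mean log2 CPM of the 50 ran from 0.54 to 0.73 in females (0.61 with all mice) and 0.24 to 0.40 in males (0.33). No paired analysis was possible because the labels give each mouse an identifier of its own and no number shared between groups. Low counts limit Zbp1, Oas1a, Sp110 and Ifi35, which had too few reads for a fit in males alone.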
